A study of Mus musculus with 8 samples.

Results

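The BCL2 family is a set of proteins that meet at the outer mitochondrial membrane and decide whether it is opened during apoptosis. Pro-survival members (BCL2, BCL-XL, BCL-W and MCL1) hold the pore-forming effectors in check, and BH3-only members (BID, BAD, BIM and BIK) bind the pro-survival members or the effectors and so favor opening of the membrane. In fibroblast-derived tumor cells, the balance between these classes is known to set how readily a cell dies after stress or immune attack. The 10 genes described here are the members outside the familiar p53 target genes. They are Bcl2, Bcl2l1, which encodes BCL-XL, Bcl2l2, which encodes BCL-W, and Mcl1 among the pro-survival genes, Bak1 and Bok among the effectors, and Bid, Bad, Bcl2l11, which encodes BIM, and Bik among the BH3-only genes. They were chosen by gene symbol, and all 10 of them were among the 18768 genes of the count table.

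The data are RNA sequencing of 4 mouse tumor lines grown in culture, each with 2 libraries. The label IRF8 KO belongs to MC010 and MC011, and WT to MC654 and MC659. IRF8 is an interferon-regulated transcription factor best known in blood cells, and the mice were IRF8 knockout or wild-type C57BL/6 animals that all received the carcinogen methylcholanthrene (MCA) under the skin at 100 µg per mouse. Tumors were taken after about 3 months, and the cells were passaged at least 10 times before they were called a stable line. Each line therefore comes from 1 tumor, with the genotype that of the mouse it arose in, so that line and label cannot be told apart beyond 2 lines per label. A pathologist of the study classed the 4 lines as undifferentiated high-grade fibrosarcoma. All 8 mesenchymal markers were in the table, with a summed level of 7578 to 9291 CPM (the read count scaled to a common library depth) in the KO-labelled libraries and 6623 to 8051 CPM in the WT-labelled ones. Of 10 hematopoietic markers listed, 5 were in the table, and these summed to between 5.73 and 11.5 CPM, with the WT-labelled libraries higher. Most of this sum was Cd68. Csf1r was higher in the WT-labelled lines too, at 1.14 CPM in MC654 and 1.53 in MC659, against 0.319 in MC010 and 0.378 in MC011. Cd79a was higher in the KO-labelled libraries, at no more than 0.190 CPM. Laptm5 (0.488 CPM) and Ptprc (0.167 CPM) were highest in MC010, with line means of at most 0.0111 and 0.0224 CPM elsewhere. The 4 epithelial markers summed to 33.3 to 565 CPM in the KO-labelled libraries and 114 to 129 CPM in the others, and the 3 endothelial markers to under 1 CPM.

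Sequencing depth was 74063616 to 116206078 counts per library, with a median of 86720186. Irf8 was counted 442 and 347 times in the libraries of MC010, 32 and 10 times in MC011, 1 and 2 times in MC654, and 1 and 0 times in MC659. The targeted gene thus had more RNA in the lines labelled KO. The study genotyped the lines by PCR of genomic DNA. It reports MC010 and MC011 as IRF8 KO, and MC654 and MC659 as WT. The depth-scaled count was 361 times that of both WT-labelled lines together in MC010 (95% exact binomial interval 140.4 to 1328) and 21.3 times in MC011 (7.71 to 81.6), and such intervals cover counting error only. A count per gene does not show which exons the reads came from. Every direction below is by label, and where IRF8 KO is written it is the label that is meant.

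Of the members, 9 passed edgeR's filter on low counts in the comparison by label, and Bik did not. Genes were called at an adjusted p under 0.05 and a log2 difference over 0.59 in size. By label, 2 of the 9 members tested were called, against 22.5% of all 15153 genes tested. Both were higher in the lines labelled KO (all genes, 13.7%), and 0 were lower (all genes, 8.72%). DESeq2 also called 0 lower, and 1 lower member, Bok, had an unadjusted p under 0.05 in edgeR. The members whose 4 KO-labelled libraries did not overlap the 4 WT-labelled ones were Mcl1, Bad, Bcl2l11 and Bok, 4 of 9, against 42.5% of all genes. The median log2 difference, KO minus WT, was 0.26 over the 9 members and 0.02 over all genes, and the median size of the difference was 0.32 and 0.36. The share of members called by label was thus near that of all genes, and the values of single genes follow. The 2 libraries of a line share a tumor, so these p-values measure the spread between libraries and between 2 lines per label. In the comparisons between lines below, SE and p-values measure only the spread between the 2 libraries of a line. Nothing in the labels says that the libraries came from separate cultures.

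Bcl2l11 and Bad were the 2 genes called by label, and Bid and Bcl2l2 differed between the 2 lines labelled KO. They are shown here with the sequence before 1 RefSeq transcript start each. Each line gives the 200 bases that lie 250 to 51 bases upstream of that start in GRCm38.p6, in the direction of the gene. Capitals mark matches, on either strand, to GGGCGG, the GC box bound by SP1-type factors, or GTAAACA, the core site of FOXO factors. The windows are chr2:128125788-128125987 on the plus strand for Bcl2l11, chr19:6941611-6941810 on the plus strand for Bad, chr6:120916875-120917074 on the minus strand for Bid, and chr14:54883175-54883374 on the plus strand for Bcl2l2.
Bcl2l11: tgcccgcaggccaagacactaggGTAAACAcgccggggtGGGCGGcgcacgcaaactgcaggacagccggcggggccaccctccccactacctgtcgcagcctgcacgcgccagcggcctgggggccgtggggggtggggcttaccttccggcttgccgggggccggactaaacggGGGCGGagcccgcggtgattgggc
Bad: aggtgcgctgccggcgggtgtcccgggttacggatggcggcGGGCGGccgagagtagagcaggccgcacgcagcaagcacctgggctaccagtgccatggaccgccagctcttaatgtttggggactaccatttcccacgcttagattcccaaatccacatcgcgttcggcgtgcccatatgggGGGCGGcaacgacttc
Bid: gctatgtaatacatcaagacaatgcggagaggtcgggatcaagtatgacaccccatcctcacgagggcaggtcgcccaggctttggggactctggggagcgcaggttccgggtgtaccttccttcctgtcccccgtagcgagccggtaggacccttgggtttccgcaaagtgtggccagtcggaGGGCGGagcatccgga
Bcl2l2: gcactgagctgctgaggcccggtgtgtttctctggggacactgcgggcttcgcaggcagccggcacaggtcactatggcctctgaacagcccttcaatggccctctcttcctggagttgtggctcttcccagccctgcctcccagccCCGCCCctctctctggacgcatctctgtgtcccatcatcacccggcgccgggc
Of the 10 members, 9 had at least 1 such RefSeq window, 13 windows in all. GTAAACA was found in 1 of the 13, the Bcl2l11 window printed above, and in 2.58% of all 32851 windows of this length. Bcl2l11 and Bad each had another window, not printed, at starts 1537 and 701 bases further along. That of Bcl2l11 held GGGCGG but not GTAAACA, and that of Bad held neither. GGGCGG was found in 6 of the 13 windows and in 24.6% of all windows. A pair of GAAA with any 2 bases between them, the element read by IRF factors, was in 0 of the 13 and in 2.40% of all windows, and the E box CACGTG was in 0 of the 13 and in 4.34%. A match is a description of the letters, not a bound site.

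**Figure D1:**
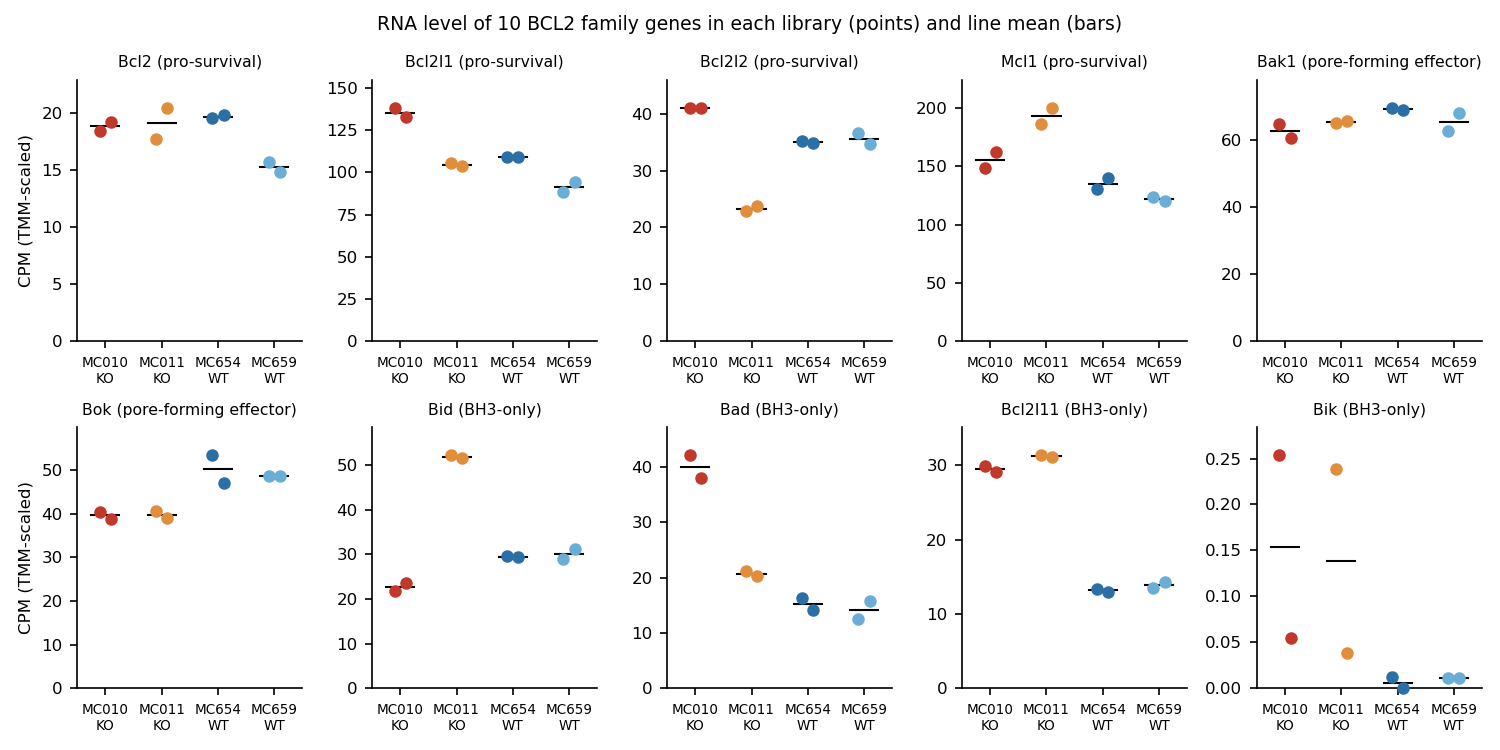
TMM-scaled CPM (y axis, from 0, one scale per gene) of each of the 10 members in each library (points) of the 4 lines (x axis), with the mean of each line as a bar. Bcl2l11 sits near 30 CPM in both KO-labelled lines and near 14 CPM in both WT-labelled ones, while Bid and Bcl2l2 split MC010 from MC011 with the WT-labelled lines between them.

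Among the pro-survival genes, Mcl1 was the only one of the 4 whose libraries were apart by label. Mcl1 encodes a short-lived protein on which many tumor cells depend. It was counted at 149 and 162 CPM in MC010, 186 and 200.3 CPM in MC011, 130.5 and 139.9 in MC654, and 124 and 120.3 in MC659. All KO-labelled libraries were above all WT-labelled ones, and MC011 was the highest line. The log2 difference by label was 0.44 (SE 0.10, adjusted p = 0.0107, edgeR), which passed the p threshold and was short of the fold threshold. Between lines it ran from 0.20 (SE 0.06) for MC010 minus MC654 to 0.66 (SE 0.06) for MC011 minus MC659, and only the latter passed both thresholds. The p threshold was missed by label without MC654 (adjusted p = 0.0550) or without MC659 (adjusted p = 0.145, edgeR).

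Bcl2l1, whose protein BCL-XL guards cells of many tissues, was at 138 and 133 CPM in MC010, 105 and 104 CPM in MC011, 109 and 109 in MC654, and 88.2 and 94.4 in MC659. MC010 was highest, and MC011 overlapped the range of the WT-labelled lines. By label the log2 difference was 0.26 (SE 0.12, adjusted p = 0.129, edgeR), so Bcl2l1 did not pass. The values of MC010 exceeded those of MC659 by 0.57 on the log2 scale (SE 0.05), just under the fold threshold.

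Bcl2l2 went opposite ways in the 2 lines labelled KO. Its level was 41.0 CPM in both libraries of MC010, 22.8 and 23.7 CPM in MC011, 35.2 and 34.9 in MC654, and 36.6 and 34.6 in MC659. MC010 lay above both WT-labelled lines and MC011 below them, with no overlap between libraries. MC011 was lower than MC654 by a log2 difference of -0.59 (SE 0.06) and lower than MC659 by -0.62 (SE 0.06), and both passed. Both sit near the fold threshold. The call against MC654 was lost without a filter on low counts and without library 1 of MC011 or of MC654, and the call against MC659 was lost without library 1 of MC011 or of MC659. MC010 was above them by 0.23 (SE 0.06) and 0.20 (SE 0.06), which did not reach the fold threshold. Pooled by label, the 2 lines gave -0.14 (SE 0.21, adjusted p = 0.645, edgeR), with an SD of 10.2 CPM over the 4 KO-labelled libraries and 0.866 CPM over the 4 WT-labelled ones. In the annotation, Bcl2l2 shares 594 exon bases, 13.3% of its own, with Gm20521 on the same strand, a gene not analysed here, so reads of the shared part could have been assigned to neither.

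Bcl2, the founding member, had the lowest level per length of the pro-survival genes. It stood at 18.4 and 19.2 CPM in MC010, 17.7 and 20.4 CPM in MC011, 19.5 and 19.8 in MC654, and 15.7 and 14.8 in MC659. MC659 was the low line, and the libraries of the other 3 lines lay between 17.7 and 20.4 CPM. The log2 difference by label was 0.12 (SE 0.12, adjusted p = 0.469, edgeR). Bcl2 was 0.37 higher in MC654 than in MC659 on the log2 scale (SE 0.08, adjusted p = 0.00549, edgeR), short of the fold threshold.

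The 2 effectors had the smallest ranges of line means among the 9 members tested, although Bok differed by label. Bak1 encodes one of the proteins that form the pore. Its levels were 64.5 and 60.6 CPM in MC010, 64.9 and 65.7 CPM in MC011, 69.4 and 68.7 in MC654, and 62.5 and 67.8 in MC659. The labels overlapped, and the line means spanned 0.14 on the log2 scale, the smallest range of the 9 members tested. By label the difference was -0.07 (SE 0.06, adjusted p = 0.360, edgeR). Bak1 shares 437 exon bases with Ggnbp1 on the opposite strand.

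Bok, a BAX- and BAK-like protein that is regulated by protein turnover, was lower in every KO-labelled library. It was at 40.4 and 38.9 CPM in MC010, 40.6 and 39.0 CPM in MC011, 53.5 and 47.1 in MC654, and 48.7 and 48.6 in MC659. The log2 difference between the 2 lines labelled KO was 0.00 (SE 0.06), and both lay below the WT-labelled lines. The log2 difference by label was -0.32 (SE 0.06, adjusted p = 0.00393, edgeR), which passed the p threshold and not the fold threshold. With counts summed per line its adjusted p was 0.237 (edgeR). The difference was between -0.34 and -0.29 in the 4 comparisons between a KO-labelled and a WT-labelled line.

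The BH3-only genes held both members called by label. Bcl2l11 encodes BIM, which can bind every pro-survival member and activates the effectors. It was counted at 30.0 and 29.1 CPM in MC010, 31.4 and 31.1 CPM in MC011, 13.4 and 13.0 in MC654, and 13.5 and 14.3 in MC659. The libraries formed 2 tight sets by label, with means of 30.4 ± 1.06 and 13.6 ± 0.561 CPM (SD, n = 4 libraries each). The log2 difference was 1.16 (SE 0.07, adjusted p = 1.45e-05, edgeR). Within each label the lines differed by -0.08 on the log2 scale (SE 0.07 each), which did not pass (adjusted p = 0.326 for the KO-labelled pair and 0.562 for the WT-labelled pair, edgeR). Leaving out any 1 of the 8 libraries kept the difference between 1.14 and 1.19, and leaving out any 1 of the 4 lines kept its adjusted p at or below 0.00175. With 1 summed count per line, and so 2 values a label, the difference was 1.17 with an adjusted p of 0.0844 (edgeR).

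Bad encodes a BH3-only protein that is held inactive by growth factor signalling through phosphorylation. It was at 42.1 and 37.9 CPM in MC010, 21.2 and 20.2 CPM in MC011, 16.2 and 14.2 in MC654, and 12.6 and 15.9 in MC659. All KO-labelled libraries were above all WT-labelled ones, and MC010 was far above MC011. The log2 difference by label was 1.05 (SE 0.26, adjusted p = 0.0140, edgeR). MC010 exceeded MC654 by 1.40 (SE 0.10) and MC659 by 1.50 (SE 0.10), which both passed. MC011 exceeded them by 0.44 (SE 0.10) and 0.54 (SE 0.10), short of the fold threshold. Without MC010 the difference by label was 0.48, without MC654 it was 1.09 with an adjusted p of 0.109 and without MC659 it was 0.99 with an adjusted p of 0.132 (edgeR), so the call was lost in each case. With the line as a random block in limma-voom, Bad had a log2 difference of 1.02 and an adjusted p of 0.0795, and with counts summed per line its adjusted p was 0.223 (edgeR). Bad lies on chromosome 19 (mm10, 6941861 to 6951898) and shares 524 exon bases, 20.5% of its own, with Gpr137 on the opposite strand. Gpr137, named here because of this overlap, had 31.9 CPM in MC010, 17.2 in MC011, 15.3 in MC654 and 15.3 in MC659. The library kit was stranded, but whether the counting used strand is not given in the sources used here, so reads of the 2 genes in the shared bases may not have been told apart.

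Bid links death receptors to mitochondria, since its protein is cut by caspase-8. It was at 21.8 and 23.5 CPM in MC010, 52.2 and 51.5 CPM in MC011, 29.6 and 29.4 in MC654, and 29.0 and 31.1 in MC659. MC011 was the highest line and MC010 the lowest, with both WT-labelled lines between them and no overlap. MC011 exceeded MC654 by 0.81 on the log2 scale (SE 0.06) and MC659 by 0.78 (SE 0.06), and both passed. MC010 lay below them, with -0.38 (SE 0.06, adjusted p = 5.92e-05) and -0.41 (SE 0.06, adjusted p = 2.74e-05, edgeR), short of the fold threshold. By label the log2 difference was 0.32 (SE 0.30, adjusted p = 0.438, edgeR), an average of the 2 opposite directions. Bid shares 628 exon bases, 17.7% of its own, with Bcl2l13 on the opposite strand, which had 58.6 CPM in MC010 and 81.4, 79.4 and 78.5 CPM in MC011, MC654 and MC659. Reads of these shared bases may likewise not have been told apart.

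Bik was near the limit of detection. It was counted 29 and 4 times in the libraries of MC010, 23 and 3 times in MC011, 1 and 0 times in MC654, and 1 and 1 times in MC659, and the level that 3 counts stand for was at most 0.0408 CPM. Every KO-labelled library held more counts than any WT-labelled one, but 1 library carried most of them in each KO-labelled line. Library 1 held 87.9% of the Bik counts of MC010 (95% exact binomial interval 71.8 to 96.6) and 61.1% of its depth, and 88.5% of those of MC011 (69.8 to 97.6) and 54.9% of its depth. The depth-scaled ratio to both WT-labelled lines was 20.1 for MC010 (95% exact binomial interval 6.32 to 102.6) and 17.5 for MC011 (5.38 to 90.6), for counting error only. Bik passed the filter by line through its 2 high libraries. Its call against the WT-labelled lines was lost without library 1 of MC010 (adjusted p = 0.202 and 0.308) and without library 1 of MC011 (0.316 and 0.465, edgeR). The call was also lost against MC654 without that line's library 2 (adjusted p = 0.0678 and 0.0947) and against MC659 without either of its libraries (0.0827 to 0.112, edgeR).

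Taken line by line, the same genes were not called throughout. These 4 comparisons share lines, so they are given side by side and not as repeats of each other. Bik is left out of these counts, since it passed the filter only through the libraries where it is high. MC010 minus MC654 had 2 of the other 9 members called, Bad and Bcl2l11 (all genes, 35.8%). MC010 minus MC659 had the same 2 (all genes, 36.7%). MC011 minus MC654 had 3, Bcl2l2, Bid and Bcl2l11 (all genes, 29.9%). MC011 minus MC659 had those 3 and Mcl1, 4 in all (all genes, 30.5%). Called in 1 direction in all 4 comparisons was 1 of the 9, Bcl2l11 (all genes, 13.4%). Bcl2l11 was higher by 2.24-fold, 2.12-fold, 2.36-fold and 2.24-fold in these 4 comparisons.

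**Figure D2:**
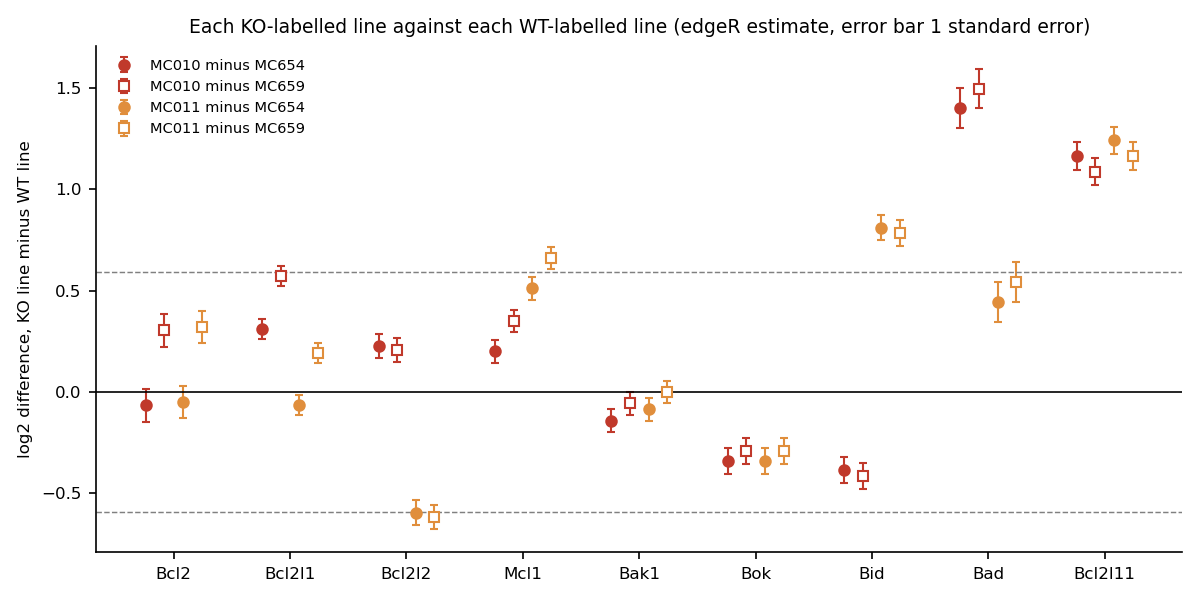
Log2 difference (y axis) of 9 members (x axis, Bik left out for its low counts) between each KO-labelled and each WT-labelled line, as the edgeR estimate with 1 SE (bars), MC010 in red and MC011 in orange, MC654 as filled circles and MC659 as open squares, with dashed lines at 0.59 and -0.59. All 4 points of Bcl2l11 lie above 1, those of Bok lie between -0.34 and -0.29, and those of Bid and Bcl2l2 fall on both sides of 0 by KO-labelled line.

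The 2 lines of the KO label differed from each other in 3 of these 9 members, Bcl2l2, Bid and Bad (all genes, 32.6%). MC010 minus MC011 was 0.82 for Bcl2l2 (SE 0.06, adjusted p = 3.96e-09), -1.19 for Bid (SE 0.06, adjusted p = 6.32e-11) and 0.95 for Bad (SE 0.10, adjusted p = 2.11e-07, edgeR). Bid in MC010 was thus at 0.437 times its level in MC011, and Bad at 1.94 times. The SE and p-values here cover the spread between libraries of a line alone. The 2 lines of the WT label differed in 0 of the 9 (all genes, 4.58%), with Bcl2 and Bcl2l1 past the adjusted p threshold, 3 members at an unadjusted p under 0.05 in edgeR, and 0 called by DESeq2. Other genes moved with the KO-labelled pair as well. All 4 epithelial markers and 6 of the 8 mesenchymal markers were called between these lines (all genes, 32.6%). The keratin genes Krt8, at 284 CPM in MC010 and 1.29 CPM in MC011, and Krt18, at 264 and 31.4 CPM, were higher in MC010. The adhesion genes Epcam, at 0.340 and 0.995 CPM, and Cdh1, at 0.00874 and 0.311 CPM, were lower in MC010. Their part in the differences of the 3 members was not tested.

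**Figure D3:**
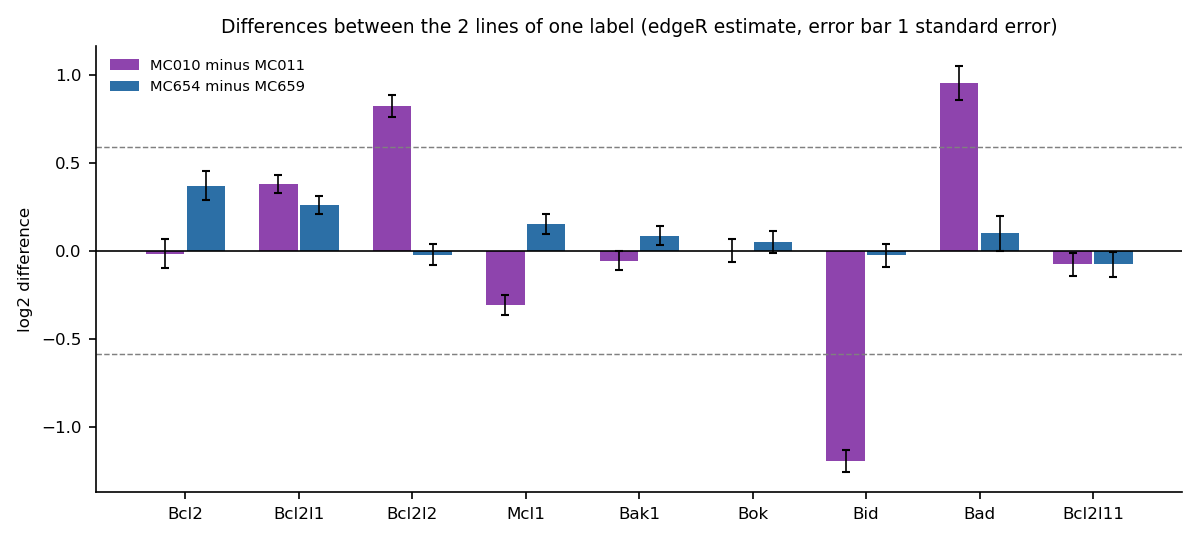
Log2 difference (y axis) of 9 members (x axis) between the 2 KO-labelled lines (purple) and between the 2 WT-labelled lines (blue), as the edgeR estimate with 1 SE (bars) and dashed lines at 0.59 and -0.59. Bcl2l2, Bad and Bid pass the dashed lines between MC010 and MC011, and no member does between MC654 and MC659.

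To set the members beside each other, CPM were divided by the kilobases of exon of each gene, which gives RPKM. Mcl1 had the highest RPKM in all 4 lines, with 45.5 ± 2.86 in MC010, 56.5 ± 2.92 in MC011, 39.6 ± 1.95 in MC654 and 35.7 ± 0.725 in MC659 (SD, n = 2 libraries). It made up 65.2% of the pro-survival RPKM in MC011 and 52.7% to 54.7% in the other 3 lines. Bcl2l1 followed in the class with 19.9 to 29.6 RPKM, then Bcl2l2 with 5.21 to 9.19 and Bcl2 with 1.66 to 2.15 RPKM. Bak1 and Bok lay between 21.6 and 28.7 RPKM. In MC654, Bak1 at 28.7 ± 0.211 and Bok at 27.3 ± 2.46 RPKM did not differ beyond their spread, and in MC659 the same held for 27.1 ± 1.58 and 26.4 ± 0.00842 RPKM.

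Among the BH3-only members Bid, Bad, Bcl2l11 and Bik, the leading gene was another one in MC010. The classes hold the members only. The BH3-only shares and sums leave out other BH3-only genes such as Pmaip1 and Bbc3, and the effector sums leave out Bax. Pmaip1 was at 20.4 CPM in MC010, 18.6 in MC011, 2.25 in MC654 and 4.27 in MC659. Bad held 60.6 ± 2.19% of the BH3-only RPKM in MC010 and Bid 24.8 ± 2.28%, whereas Bid held 54.7 ± 0.603% in MC011, 52.3 ± 1.91% in MC654 and 53.8 ± 2.10% in MC659 (SD, n = 2 libraries). Bcl2l11 made up 14.3% and 14.6% in the KO-labelled lines and 10.3% and 11.0% in the WT-labelled ones. The summed BH3-only level was nevertheless close between the lines of each label. It was 25.8 ± 0.963 RPKM in MC010, 26.7 ± 0.540 in MC011, 15.9 ± 0.656 in MC654 and 15.8 ± 1.40 in MC659. The summed pro-survival level was 86.3 ± 2.10, 86.6 ± 3.03, 73.4 ± 1.96 and 65.3 ± 0.154 RPKM in the same order, and that of the 2 effectors 47.6 ± 1.72, 48.8 ± 0.353, 56.0 ± 2.67 and 53.5 ± 1.57 RPKM. These sums are a description with no test. With the length of the longest transcript in place of all exons, the BH3-only sums were 41.4, 41.3, 24.8 and 24.5 RPKM, and Bcl2l1 rather than Mcl1 was first in MC010 and MC654. Bok then lay above Bak1 in MC654, with 34.2 and 28.9 RPKM, and in MC659, with 33.1 and 27.3 RPKM.

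**Figure D4:**
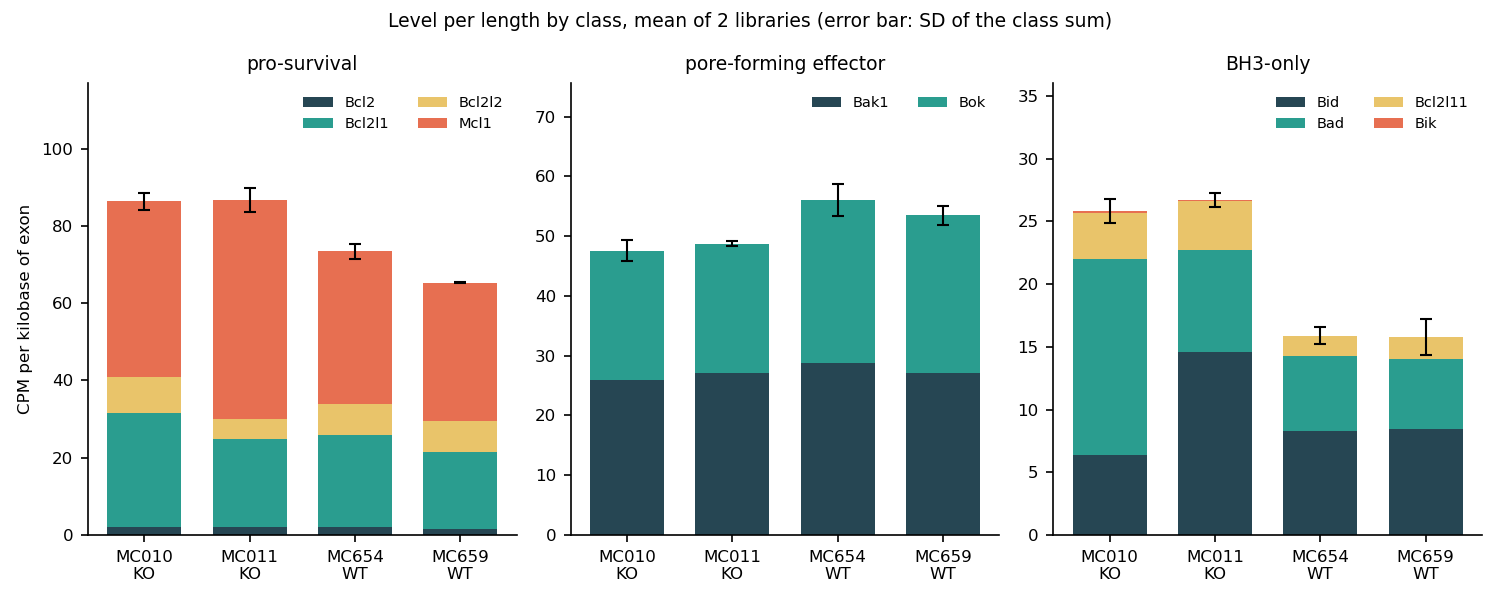
RPKM (y axis, CPM per kilobase of exon, from 0) stacked by gene in each line (x axis) for the pro-survival, effector and BH3-only members. Bars are means of 2 libraries with the SD of the class sum as error bar, and family genes that are not members are left out. The BH3-only stacks reach 25.8 and 26.7 RPKM in MC010 and MC011 from different shares of Bad and Bid, and 15.9 and 15.8 RPKM in the WT-labelled lines.

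The genes around the family were read from lists set by function. By label, 22.5% of all genes were called, 13.7% higher in the KO-labelled lines and 8.72% lower. The counts of each list stand beside these shares and were not tested against them. Among the 3 p53 target members Bax, Bbc3 and Pmaip1, 1 was called, Pmaip1, which encodes the BH3-only protein NOXA, with a log2 difference of 2.58 (adjusted p = 0.000258, edgeR). The list's median was -0.07, against 0.02 over all genes. Of 7 other family genes tested, 1 was higher, Bcl2l15 (2.00), and 1 was lower, Bnip3, a hypoxia-induced mitochondrial protein (-1.34, adjusted p = 0.000173, edgeR), with a median of -0.13. Bcl2l15 stood at under 0.25 CPM in every library.

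Of 15 genes of the apoptosome, the caspases and their inhibitors, 3 were higher (all genes, 13.7%) and 2 lower (all genes, 8.72%), with a median of -0.01. Apaf1, the scaffold that cytochrome c assembles into the apoptosome, had 41.7 and 43.2 CPM in the KO-labelled lines and 80.2 and 82.6 CPM in the WT-labelled ones, a log2 difference of -0.94 (SE 0.05, adjusted p = 7.80e-06, edgeR). Dffb, a nuclease of apoptotic DNA, fell by 0.61 on the log2 scale. Casp6, a caspase (0.84), and Birc3, an inhibitor of apoptosis (0.86), were among those that were higher. Of the 8 genes of the death receptor arm that leads to BID, 0 were called by edgeR (all genes, 22.5%) or DESeq2, with a median of 0.35. The adjusted p was under 0.05 for 3 of them in edgeR. Of these, Tnfrsf1a (0.58) and Cflar (0.53) were higher and came close to the fold threshold. The death receptor gene Tnfrsf10b was lower (-0.39, adjusted p = 0.00927, edgeR). Casp8, which cuts BID, was at 70.2 CPM in MC010 and 34.8 CPM in MC011, the opposite order to Bid.

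Of 14 partners and regulators of the members, 1 was higher, Itpr3, a calcium channel bound by BCL2 proteins (1.31, adjusted p = 0.00108), and 1 was lower, Ddit3, which encodes the stress factor CHOP (-1.16, adjusted p = 0.0159, edgeR). The median of this list was -0.06, and over all genes 13.7% were called higher and 8.72% lower. The mitochondrial channel gene Vdac2, which encodes a partner of BAK, was at -0.44 (adjusted p = 0.000348, edgeR) and short of the fold threshold.

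Among the 9 members tested by label, Bad had the widest range of line means, 1.50 on the log2 scale. The genes whose log2 CPM followed it most closely over the 8 libraries of 4 lines were Zfpl1 (Pearson r = 0.998), Angpt2 (0.995) and Nfkb2 (0.995), among 575 of 15152 genes with r over 0.95, and libraries of a line share their tumor.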

How the data were processed

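RNA of 8 libraries was sequenced with a stranded kit. The submitters' processing notes name STAR 2.7.3a, HTSeq 0.11.2, DESeq2 and the build mm10 (GRCm38.p6). The authors deposited a raw count per gene and library, a signal (the count divided by a size factor), and their own comparison with a mean signal, a log2 fold change, its error, a score (the Wald statistic) and a p-value. The deposited comparison columns were not used, and 0 of the columns of per-sample values went unmatched. The members and lists were chosen with earlier results of these data known.

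Counts were compared in R 4.3.3 with edgeR 4.0.16 (filterByExpr, TMM, robust quasi-likelihood F test, Benjamini-Hochberg adjustment over all genes tested). One fit had the label as its only term (15153 genes), and another had a group per line (16703 genes). Standard errors came from the log2 difference and F. CPM were TMM-scaled, and correlations used log2 CPM with a prior count of 0.5. Exon lengths came from GENCODE annotation of GRCm38 and promoter windows from RefSeq. The text could name all members, Irf8, up to 3 called genes a direction per list, and the 3 genes most like the member of widest range. Other genes (Casp8, Tnfrsf1a, Tnfrsf10b, Cflar, Vdac2, Krt8, Krt18, Epcam, Cdh1, Cd68, Cd79a, Laptm5, Ptprc, Gpr137, Bcl2l13 and Ggnbp1) were named after their values were seen. The lists hold a gene that is counted but not reported here by itself. Scripts were tested on simulated data. Alternatives were DESeq2 1.42.0, no filter, other scalings, sums per line, limma-voom (limma 3.58.1) with a line block, a replicate block, leaving out libraries or lines, and no fold threshold.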

Additional observations from a re-analysis of the deposited data

Results flagged for a closer look

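The difference between the 2 lines labelled KO was itself tested, and 3 of the 9 members other than Bik passed (all genes, 32.6%). MC010 minus MC011 was 0.82 on the log2 scale for Bcl2l2, -1.19 for Bid and 0.95 for Bad (edgeR, adjusted p of 3.96e-09, 6.32e-11 and 2.11e-07), so the differences of MC010 and MC011 from the same WT-labelled lines were unequal for these genes. Bid and Bcl2l2 lay on opposite sides of both WT-labelled lines, and Bad lay above them in both. The p-values rest only on the spread between libraries of a line.

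Over 20 groups of 4 libraries (10 members by 2 labels), 1 had a library far from the rest. Bik was at 0 CPM in library 2 of MC654, where the other 3 WT-labelled libraries held 1 count each. The cutoff picks out about 1 in 20 groups of 4 independent, normally distributed values. These counts are not of that kind, since libraries of a line share a tumor, and the gap is a single count.

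Within 1 Mb of Bad, 53 other genes tested had a median log2 difference of 0.50 by label and of 0.50 for MC010 minus MC011, against 0.02 and 0.00 over all genes. The 512 genes tested on chromosome 19 had medians of 0.21 and 0.08. Around Bcl2l11 the 27 neighbors had a median of -0.18 by label, and around Bid 14 neighbors had -0.06 for MC010 minus MC011.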

How the results depend on the processing

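The lines, not the libraries, limit the comparison by label. With counts summed per line, 0 members and 0 genes were called by edgeR (3 members and 3658 genes at an unadjusted p under 0.05). With the line as a random block in limma-voom (consensus correlation 0.83), 1 member, Bcl2l11, and 1886 genes were called. Without MC654, 1 member and 2079 genes were called, without MC659 1 member and 1884 genes, and without MC011 2 members and 5827 genes. Without MC010, 3 members, Bcl2l2 (-0.62), Bid (0.78) and Bcl2l11, and 4735 genes were called. With no fold threshold, 4 members and 5675 genes were called by label, and 9, 9, 7, 9, 5 and 2 of the 10 members, Bik included, in MC010 minus MC654, MC010 minus MC659, MC011 minus MC654, MC011 minus MC659, MC010 minus MC011 and MC654 minus MC659. For these line comparisons the share of all genes was not counted, either at this setting or with a library left out. Bik, which passed the filter through its high libraries, is in each count between a KO-labelled and a WT-labelled line. The counts are thus not a result about the members. With Bik set aside, MC011 minus MC654 lost the call of Bcl2l2 without library 1 of MC011 or of MC654. MC011 minus MC659 lost that of Bcl2l2 without library 1 of MC011 or of MC659. Bad was added to the latter without library 2 of MC659. Without MC011, the difference by label turned to 0.21 for Bcl2l2 (adjusted p = 0.00742) and -0.41 for Bid (adjusted p = 0.000427), since only MC010 then stood for the label. Bcl2 turned to -0.064 without MC659 (adjusted p = 0.713, edgeR). DESeq2 called Bik by label beside Bad and Bcl2l11, among 4504 genes, and the fit without a filter did so among 3784 genes. For MC011 minus MC659, DESeq2 did not call Bik. Same-numbered libraries of different lines did not deviate together (r of -0.02 to 0.04), and a replicate block on that number left 2 members, Bad and Bcl2l11, and 3106 genes called. With the longest transcript in place of all exons, 60 of 80 levels and shares per length moved by more than 1 SD.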
